A study of Mus musculus with 9 samples.

Results

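A set of 10 genes that regulate or mark plasma cells was examined in spleen tissue: Prdm1, Irf4, Xbp1, Sdc1, Mzb1, Slamf7, Ell2, Eaf2, Txndc5 and Fkbp11. They were taken by name, and every probe set whose platform symbol is exactly 1 of these names was used, which gave 21 of the 45037 probe sets tested and 10 of the 18193 named genes. Frozen tissue was used throughout, with 1 Affymetrix array a sample: 5 samples are lymphomas in the spleens of mice with a Sca1-MALT1 transgene, and 4 are wild-type spleens labelled as healthy controls. The name of the transgene gives Sca-1, a marker of blood stem and progenitor cells, as its driver, and the labels do not say which cells of the lymphomas express it. MALT1 is a protease and scaffold that links antigen receptors to NF-kB. The labels used here give neither strain nor age, and they do not say whether each sample came from a separate animal, so every p-value refers to the variation among these arrays. Values are log2 levels after RMA, the summary of an Affymetrix probe set after background correction and normalization, and every difference is lymphoma minus wild-type.

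Plasma cells are the antibody-secreting end stage of B cells. Irf4 and the Prdm1 product Blimp-1 start the programme, Blimp-1 shuts down B-cell genes, and Xbp1 enlarges the endoplasmic reticulum so that the cell can fold and export immunoglobulin. In the spleen these cells gather in the red pulp and at its border with the white pulp, and human MALT lymphomas can contain a plasma cell component.

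None of the 21 probe sets was called by limma (0 at a Benjamini-Hochberg adjusted p under 0.05 over all probe sets), where 0.486% of all probe sets were. Without that adjustment 6 of the 21 (28.6%) were higher in lymphoma at a p under 0.05 and 0 were lower, beside 5.15% higher and 8.76% lower over all probe sets. The 6 belonged to Prdm1, Ell2, Txndc5 (2 probe sets) and Xbp1 (2 probe sets). In either direction, the count of the 21 at that p was 10 without lymphoma 4 and 2 without wild-type spleen 2. It was 3 without lymphoma 1, without lymphoma 3 or without lymphomas 3 and 5. In the same order of runs, 7247, 4191, 5896, 6958 and 6544 of 45037 probe sets were at that p, against 6267 on all arrays. The groups overlapped on every one of the 21, while they were apart on 6.47% of all probe sets. The median difference was 0.34 over the 21 probe sets and -0.01 over all probe sets. The lymphomas spread more widely than the wild-type spleens. With each gene represented by its brightest probe set on average, the SD was larger among the lymphomas than among the wild-type spleens for all 10 genes, as it was for 78.9% of all genes, and the median ratio of the SDs was 4.91 against 1.89 over all genes.

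**Figure D1:**
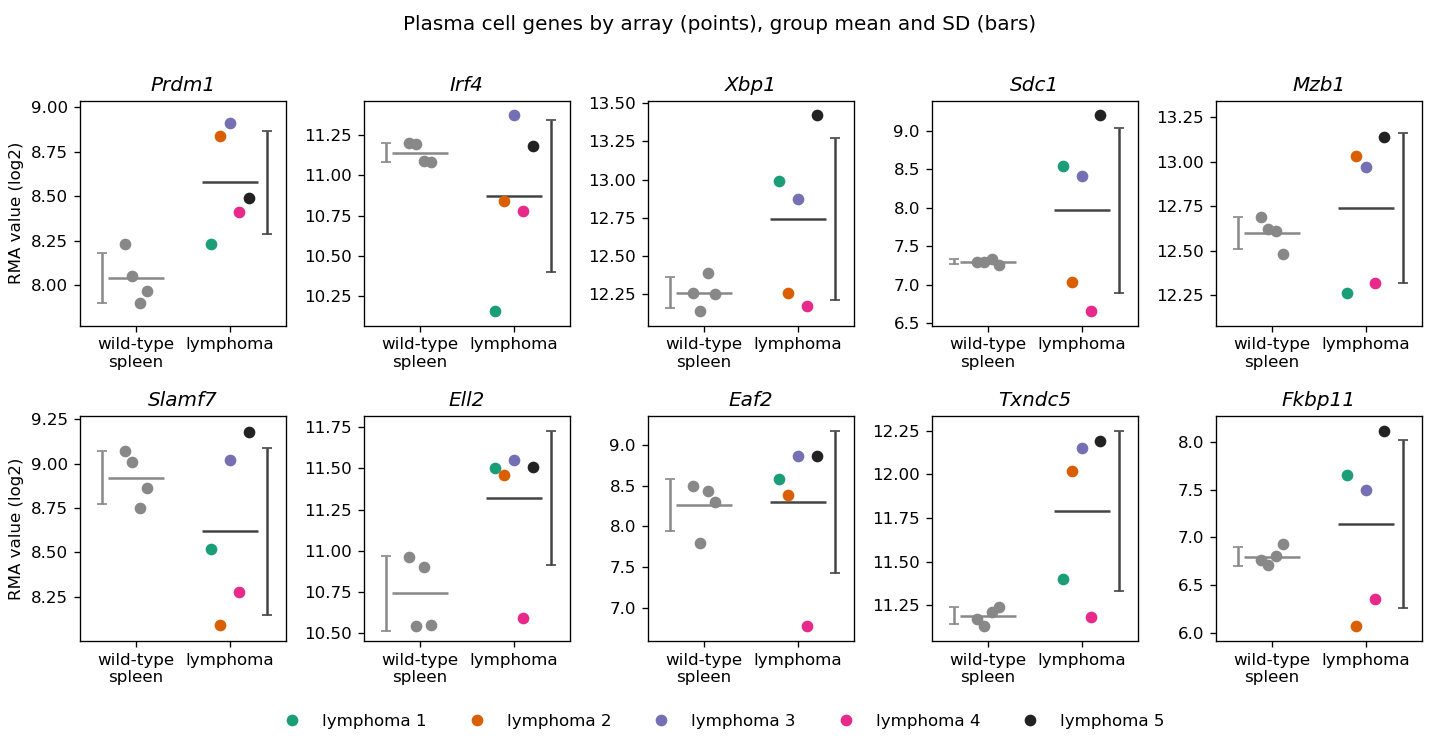
Log2 RMA values of the 10 genes (highest-mean probe set) on each array, with grey points for the 4 wild-type spleens and a colour for each of the 5 lymphomas; horizontal lines are group means, error bars are SDs, and each panel has its own axis. Sdc1 and Fkbp11 show lymphomas both above and below a narrow wild-type group, while for Prdm1, Ell2 and Txndc5 4 lymphomas lie above all wild-type spleens.

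Among the regulators, Prdm1 came closest to the threshold. Its probe set 1420425_at read 8.23, 8.05, 7.90 and 7.97 in wild-type spleens 1 to 4, and 8.23, 8.84, 8.91, 8.41 and 8.49 in lymphomas 1 to 5. Lymphomas 2 to 5 lay above all wild-type spleens, and lymphoma 1 was level with the highest of them. The means were 8.04 ± 0.14 (SD, n = 4) and 8.58 ± 0.29 (SD, n = 5), a difference of 0.54 with a standard error of 0.15 (limma p 0.00437, adjusted p 0.150). Lymphoma 1 had the lowest Prdm1 value of the lymphomas although it stood high for several of the genes below.

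Irf4, the transcription factor that acts with Blimp-1 and is also present in activated B and T cells, did not follow Prdm1. Probe set 1421173_at read 11.20, 11.19, 11.09 and 11.08 in the wild-type spleens and 10.16, 10.84, 11.37, 10.78 and 11.18 in lymphomas 1 to 5. Lymphomas 1, 2 and 4 lay below all wild-type spleens, lymphoma 3 lay above them and lymphoma 5 among them. The difference was -0.27 (95% interval -0.74 to 0.20, limma adjusted p 0.604), and -0.096 without lymphoma 1. A dimmer Irf4 probe set, 1421174_at, differed by 0.18 and had lymphoma 2 highest, at 7.19, so the Irf4 probe sets disagree in sign and neither passed.

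Xbp1 encodes the transcription factor that drives the secretory machinery, and its 4 probe sets had differences of 0.33 to 0.64 with limma adjusted p-values of 0.291 to 0.449. The brightest, 1437223_s_at, read 12.26, 12.14, 12.39 and 12.25 in the wild-type spleens and 12.99, 12.26, 12.87, 12.17 and 13.42 in lymphomas 1 to 5. Lymphomas 5, 1 and 3 lay above all wild-type spleens, and lymphomas 2 and 4 lay among them. Lymphoma 5 stood 2.24-fold over the wild-type mean, lymphoma 1 1.66-fold and lymphoma 3 1.53-fold. The difference of 0.48 was 0.31 without lymphoma 5. The other 3 probe sets also put lymphoma 5 first, lymphoma 1 next and lymphoma 3 after it. These arrays do not separate the spliced, active Xbp1 transcript from the unspliced one.

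The elongation factor genes Ell2 and Eaf2 differed from each other. Ell2, which favours the secreted form of the immunoglobulin heavy chain during RNA processing, read 10.96, 10.54, 10.90 and 10.55 in the wild-type spleens and 11.50, 11.46, 11.55, 10.59 and 11.51 in lymphomas 1 to 5 (1450744_at). Lymphomas 1, 2, 3 and 5 lay close together and above all wild-type spleens, and lymphoma 4 lay among the wild-type spleens. The difference was 0.58 with a standard error of 0.20 (limma adjusted p 0.248). Without lymphoma 4 it was 0.77 and passed the threshold (limma adjusted p 0.0386), the only call of a probe set of these genes in any alternative run. A dim second Ell2 probe set, 1458569_at, lay below the median of all values on every array and had a mean of 4.52 in both groups.

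Eaf2, which encodes a partner that stimulates ELL proteins and is known from germinal centre B cells, read 8.50, 7.80, 8.43 and 8.30 in the wild-type spleens and 8.59, 8.39, 8.87, 6.77 and 8.87 in lymphomas 1 to 5. Lymphomas 1, 3 and 5 lay slightly above all wild-type spleens and lymphoma 4 far below them. The difference was 0.04 (95% interval -0.86 to 0.94, limma adjusted p 0.980), and it was 0.42 without lymphoma 4 and -0.12 without wild-type spleen 2. Lymphoma 4 thus had the lowest value of the 9 arrays for Eaf2 and the lowest of the lymphomas for Ell2.

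The surface marker Sdc1, the syndecan CD138 that is widely used to recognise plasma cells, showed the widest spread of the 10 genes. Its brightest probe set, 1415943_at, read 7.30, 7.30, 7.34 and 7.26 in the wild-type spleens and 8.54, 7.04, 8.41, 6.66 and 9.20 in lymphomas 1 to 5. Lymphomas 5, 1 and 3 stood 3.72-fold, 2.36-fold and 2.15-fold over the wild-type mean, and lymphomas 2 and 4 lay below every wild-type spleen, at 0.834 and 0.641 of that mean. The SD was 1.07 among lymphomas and 0.03 among wild-type spleens. With lymphomas on both sides, the mean difference of 0.67 had a standard error of 0.47 (limma adjusted p 0.566), and it was 0.36 without lymphoma 5. Probe set 1437279_x_at spread further, from 5.99 in lymphoma 4 to 9.90 in lymphoma 5, and 1415944_at from 6.70 to 8.04, both with the same order of the 5 lymphomas. The difference on 1437279_x_at was 0.91, and 0.42 without lymphoma 5. The fourth, 1448158_at, lay below the overall median on every array and ranged by 0.35 among the lymphomas.

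Slamf7, a receptor of plasma cells that natural killer cells and other lymphocytes also carry, had the other negative difference. It read 9.07, 9.01, 8.75 and 8.86 in the wild-type spleens and 8.52, 8.09, 9.02, 8.28 and 9.18 in lymphomas 1 to 5. Lymphomas 1, 2 and 4 lay below all wild-type spleens, lymphoma 3 among them and lymphoma 5 above them. The difference was -0.31 (95% interval -0.79 to 0.18, limma adjusted p 0.573), and -0.17 without lymphoma 2. Irf4 and Slamf7 were the pair in which lymphomas 1, 2 and 4 were all below the wild-type range.

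**Figure D2:**
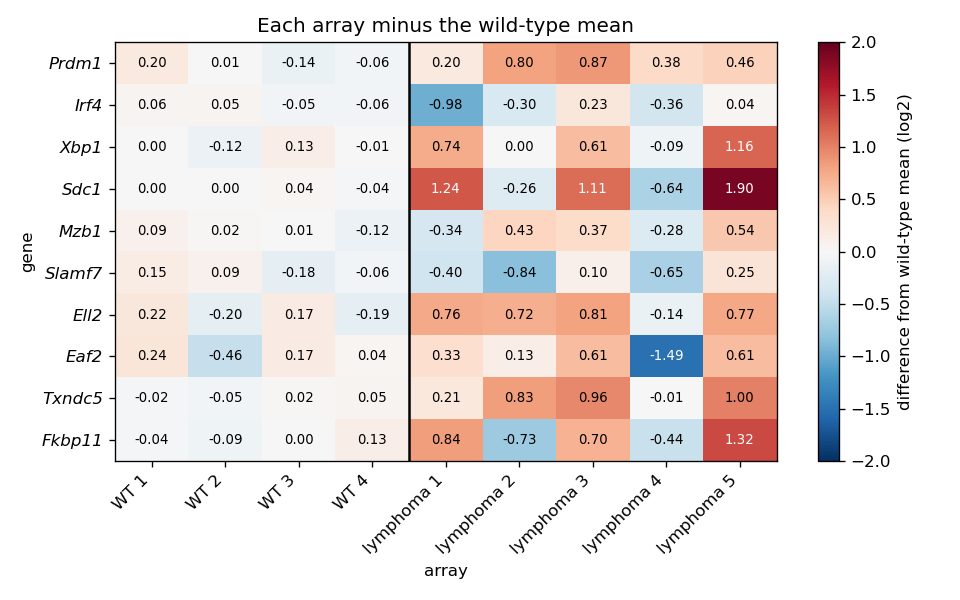
Difference of each array from the wild-type mean (log2) for the 10 genes, with red for higher and blue for lower values and the 4 wild-type spleens left of the line. Lymphomas 3 and 5 are positive in all 10 genes, from 0.04 for Irf4 in lymphoma 5 to 1.90 for Sdc1 in lymphoma 5, and lymphoma 4 is negative in 9 of 10.

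Mzb1, Txndc5 and Fkbp11 encode proteins of the endoplasmic reticulum. Mzb1, a co-chaperone of marginal zone B cells and plasma cells that aids immunoglobulin assembly, read 12.69, 12.62, 12.61 and 12.48 in the wild-type spleens and 12.26, 13.03, 12.97, 12.32 and 13.14 in lymphomas 1 to 5. Lymphomas 5, 2 and 3 lay above all wild-type spleens, and lymphomas 4 and 1 lay below them. The difference was 0.14 (95% interval -0.29 to 0.57, limma adjusted p 0.791). It was 0.044 without lymphoma 5 and 0.26 without lymphoma 1. Lymphoma 1 was thus above the wild-type range for Sdc1 and Xbp1 and below it for Mzb1.

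Txndc5, a protein disulfide isomerase, had the largest difference among the 21 probe sets. On 1423746_at it read 10.10, 9.92, 9.91 and 9.93 in the wild-type spleens and 11.60, 10.62, 11.49, 9.69 and 12.58 in lymphomas 1 to 5. Lymphomas 1, 2, 3 and 5 lay above all wild-type spleens and lymphoma 4 below them. The difference was 1.23, or 2.35-fold, with a standard error of 0.48 (limma p 0.0274, adjusted p 0.290). The brighter probe set 1451091_at read 11.17, 11.13, 11.21 and 11.24 in the wild-type spleens and 11.40, 12.02, 12.15, 11.18 and 12.19 in lymphomas 1 to 5. It differed by 0.60 (limma p 0.0174, adjusted p 0.249) and ranked lymphoma 2 above lymphoma 1, whereas 1423746_at ranked lymphoma 1 above lymphomas 3 and 2.

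Fkbp11, a peptidyl-prolyl isomerase of secretory cells, repeated the Sdc1 pattern on its brightest probe set. On 1417267_s_at it read 6.76, 6.71, 6.81 and 6.93 in the wild-type spleens and 7.65, 6.07, 7.50, 6.36 and 8.12 in lymphomas 1 to 5. Lymphomas 5, 1 and 3 lay above all wild-type spleens, at 2.50-fold, 1.79-fold and 1.63-fold of the wild-type mean, and lymphomas 4 and 2 lay below them. The difference was 0.34 with a standard error of 0.39 (limma adjusted p 0.748). It was 0.093 without lymphoma 5 and 0.61 without lymphoma 2. The other Fkbp11 probe sets lay below the overall median on every array and differed by -0.06 each.

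**Figure D3:**
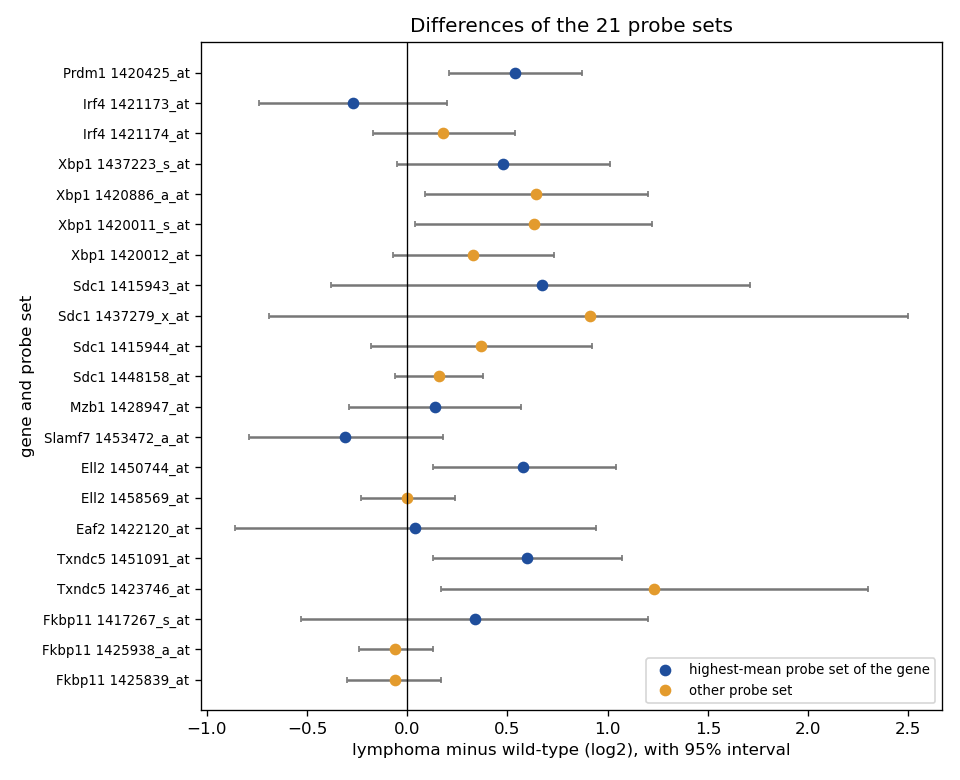
Lymphoma minus wild-type difference (log2) of all 21 probe sets with the 95% interval of the limma fit, not adjusted for the number of probe sets; blue marks the highest-mean probe set of a gene and orange the others. The intervals of 6 probe sets, of Prdm1, Xbp1, Ell2 and Txndc5, lie above 0, and the widest is that of Sdc1 on 1437279_x_at, from -0.69 to 2.50.

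An order with lymphoma 5 first, lymphoma 1 next and lymphoma 3 after it was seen on 9 of the 21 probe sets. These 9 belonged to Xbp1, Sdc1, Txndc5 and Fkbp11, which have 13 probe sets between them. Probe sets of the same gene are repeat readings and not separate cases. The share of all probe sets with this order was not counted, so the 9 have no background beside them. The 4 genes are grouped here because a probe set of each showed this order. The order held for the brightest probe set of Xbp1, Sdc1 and Fkbp11, but not for that of Txndc5, where only 1423746_at showed it. Over the 9 arrays Pearson's r was 0.97 between Xbp1 and Sdc1, 0.96 between Sdc1 and Fkbp11 and 0.92 between Xbp1 and Fkbp11, while Txndc5, on its brighter probe set, had 0.67 with Xbp1, 0.62 with Sdc1 and 0.43 with Fkbp11, and it was -0.11 between Irf4 and Xbp1. These are descriptions of 9 arrays on which each gene was read from the same RNA. Promoter windows of these genes were searched for elements bound by factors of the unfolded protein response, to which Xbp1 belongs. The windows run from 250 bases before to 50 bases after a RefSeq gene start on assembly GRCm38.p6. Windows on the chromosome that carries Mzb1 were left out of the member windows. The search covered 14 windows of 9 of the genes, all but Mzb1. The unfolded protein response element TGACGTGG, searched on both strands, was found in 1 of the 14, a Txndc5 window, 138 bases before the start, and in 0.676% of all 32851 windows. The shorter CCACG, whose complement CGTGG ends that element, was found on either strand in 6 of the 14 windows (Prdm1, Sdc1, Irf4, Fkbp11 and 2 of Txndc5) and in 32.8% of all windows. The full ER stress element, CCAAT followed after 9 bases by CCACG, was in 0 of the 14 and in 0.119% of all windows, and GAAA repeated after 2 bases, an element of the type bound by interferon regulatory factors, was in 1 of the 14 (Txndc5, another start) and in 3.44%. The windows of Txndc5, Fkbp11 and Sdc1 that hold CCACG on either strand are shown because Fkbp11 and Sdc1 followed the order of Xbp1, and Txndc5 did so on 1 of its 2 probe sets. For Txndc5, the window with the longer element is given. They read 5′ to 3′ on the strand of the gene, with all matches to the longer element and to CCACG on either strand in capitals. A match describes letters and is no evidence of binding.
Txndc5, chr13:38527865-38528164, minus strand: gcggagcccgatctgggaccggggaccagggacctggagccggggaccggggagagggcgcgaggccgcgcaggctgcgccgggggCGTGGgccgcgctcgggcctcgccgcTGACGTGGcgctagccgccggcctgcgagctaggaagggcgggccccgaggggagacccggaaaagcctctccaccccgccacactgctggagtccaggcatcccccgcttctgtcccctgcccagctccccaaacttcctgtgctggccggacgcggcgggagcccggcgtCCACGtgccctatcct
Fkbp11, chr15:98727578-98727877, minus strand: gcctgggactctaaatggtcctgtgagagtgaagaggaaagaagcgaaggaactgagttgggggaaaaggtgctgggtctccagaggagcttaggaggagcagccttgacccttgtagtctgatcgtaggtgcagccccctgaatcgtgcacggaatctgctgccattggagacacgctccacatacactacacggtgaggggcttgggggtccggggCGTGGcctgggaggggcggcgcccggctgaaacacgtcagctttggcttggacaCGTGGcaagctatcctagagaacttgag
Sdc1, chr12:8771146-8771445, plus strand: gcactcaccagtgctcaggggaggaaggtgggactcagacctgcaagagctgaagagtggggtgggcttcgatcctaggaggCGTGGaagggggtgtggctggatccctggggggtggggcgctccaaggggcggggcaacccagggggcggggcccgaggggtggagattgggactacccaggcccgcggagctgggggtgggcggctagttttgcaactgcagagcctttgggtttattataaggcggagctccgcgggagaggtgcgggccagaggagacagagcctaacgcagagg

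The order of the lymphomas over the 10 genes was described by the mean difference from the wild-type mean. It was 0.80 in lymphoma 5, 0.64 in lymphoma 3, 0.26 in lymphoma 1, 0.08 in lymphoma 2 and -0.37 in lymphoma 4, and between -0.08 and 0.09 in the wild-type spleens. Lymphoma 2 therefore lay within the wild-type range, and lymphoma 4 below it. Lymphomas 5 and 3 were each above all wild-type spleens in 9 of 10 genes and below them in 0. Lymphoma 5 was the highest of the lymphomas in 6 genes and lymphoma 3 in the other 4. Lymphoma 4 was the lowest in 5 genes, below all wild-type spleens in 6 and above them in 1, Prdm1. Lymphoma 1 was mixed, above in 6 genes and below in 3 (Irf4, Mzb1 and Slamf7), and so was lymphoma 2, above in 4 (Prdm1, Mzb1, Ell2 and Txndc5) and below in 4 (Irf4, Sdc1, Slamf7 and Fkbp11). The gap between each pair of neighbours in this order varied in sign among the genes, so the order is that of the mean and not of every gene. Each lymphoma is 1 array, and its own repeat error is not known. For all genes, the share outside the wild-type range was not counted on each array. The counts above therefore have no background beside them. The SD was larger among the lymphomas for 78.9% of all genes.

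Lymphomas 3 and 5 also stood apart in genes of the sex chromosomes. Xist, the RNA that silences an X chromosome in female cells, read 7.92 and 7.15 in lymphomas 3 and 5 and 13.69 to 13.91 on the other 7 arrays. The Y-linked gene Eif2s3y read 11.66 and 10.65 in lymphomas 3 and 5 and 3.90 to 4.22 elsewhere. The part of this in the order was not tested. No wild-type spleen read like lymphomas 3 and 5 in these genes, so on these arrays it cannot be told apart from the order. Without lymphomas 3 and 5 the difference of Sdc1 was 0.11 and that of Fkbp11 -0.11, while that of Prdm1 was 0.46 and that of Ell2 0.45. The level of 18S control probe sets was 12.15 to 12.37 in wild-type spleens and 12.68, 13.37, 12.18, 12.63 and 12.86 in lymphomas 1 to 5, and its part in the differences was not tested beyond the fit with it as a covariate, which called 0 of 45037 probe sets (limma, 3782 at an unadjusted p under 0.05).

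Other genes of the plasma cell programme gave mostly positive differences, none of which passed. Of 17 measured plasma cell genes outside the 10, limma called 0, and 12 had a positive difference (median 0.15). Before adjustment, 4 were higher and 1 was lower at a p under 0.05. Over all named genes 0.605% were called, 50.3% had a positive difference, 6.79% were higher and 8.09% lower at that p, and the median difference was 0.001. Jchain, which joins IgM and IgA units, read 12.92 to 13.30 in wild-type spleens and 14.35, 13.24, 14.30, 12.84 and 14.28 in lymphomas 1 to 5. Lymphomas 1, 3 and 5 were again high, and lymphoma 4 lay below the wild-type range (difference 0.72, limma adjusted p 0.353). Tent5c, which stabilises mRNAs of secreted proteins in plasma cells, differed by 1.64 (limma adjusted p 0.112, or 0.0149 and a difference of 1.99 without lymphoma 4). It read 13.31, 12.85, 12.30, 10.99 and 12.56 in lymphomas 1 to 5, so lymphomas 1 and 2 were highest. With the erythroid level as a covariate its difference was 1.09. Creld2, a chaperone gene, differed by 1.18 (limma adjusted p 0.151, or 0.0386 and 1.45 without lymphoma 4). For both, lymphoma 4 alone was within reach of the wild-type spleens, at 10.99 and 10.62. Tram2, of the translocation channel, differed by 0.75, and Tnfrsf13b, the receptor TACI of B cells and plasma cells, by -0.50, with every lymphoma below every wild-type spleen (limma adjusted p 0.262 and 0.270).

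Of 35 measured secretory pathway genes, listed here as driven by Xbp1, limma called 0 and 31 had a positive difference (median 0.17). Their dependence on Xbp1 was not tested here. Among all named genes 0.605% were called and 50.3% had a positive difference. At an unadjusted limma p under 0.05, 6.79% of all named genes were higher and 8.09% lower. At that p 3 of the 35 differed, all higher. They were Spcs3 (0.44), a subunit of signal peptidase, Srprb (0.36), of the signal recognition particle receptor, and Manf (0.41), a stress-induced secreted protein. Their limma adjusted p-values were 0.172, 0.195 and 0.326. The mean of the 35 genes was 11.19 to 11.25 in wild-type spleens and 11.34, 11.43, 11.48, 11.08 and 11.59 in lymphomas 1 to 5. Lymphoma 5 was highest and lymphoma 4 was again below the wild-type range.

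Only 4 genes of the immunoglobulin constant list had a probe set of their own, with Jchain among them. Igha, the IgA heavy chain gene, read 14.20 to 15.14 in the lymphomas and 13.21 to 13.93 in the wild-type spleens, without overlap, with a difference of 1.04 (limma adjusted p 0.0777, or 0.0414 and a difference of 0.93 with array weights). Ighm, the IgM heavy chain gene, read 14.54 to 14.83 in wild-type spleens and 14.97, 15.05, 15.38, 14.59 and 15.42 in lymphomas 1 to 5. Lymphomas 1, 2, 3 and 5 lay above all wild-type spleens and lymphoma 4 among them (difference 0.36, limma adjusted p 0.370). Ighg3, an IgG heavy chain gene, read 10.25 to 10.71 in wild-type spleens and 12.50, 9.03, 14.10, 9.38 and 12.15 in lymphomas 1 to 5, so lymphomas 1, 3 and 5 were above and lymphomas 2 and 4 below, as for Sdc1. Its difference of 0.94 did not pass (limma adjusted p 0.706), and it was 0.27 without lymphoma 3 and 1.54 without lymphoma 2. Igha and Ighm did not share that split, since lymphoma 2 lay above the wild-type spleens for both.

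**Figure D4:**
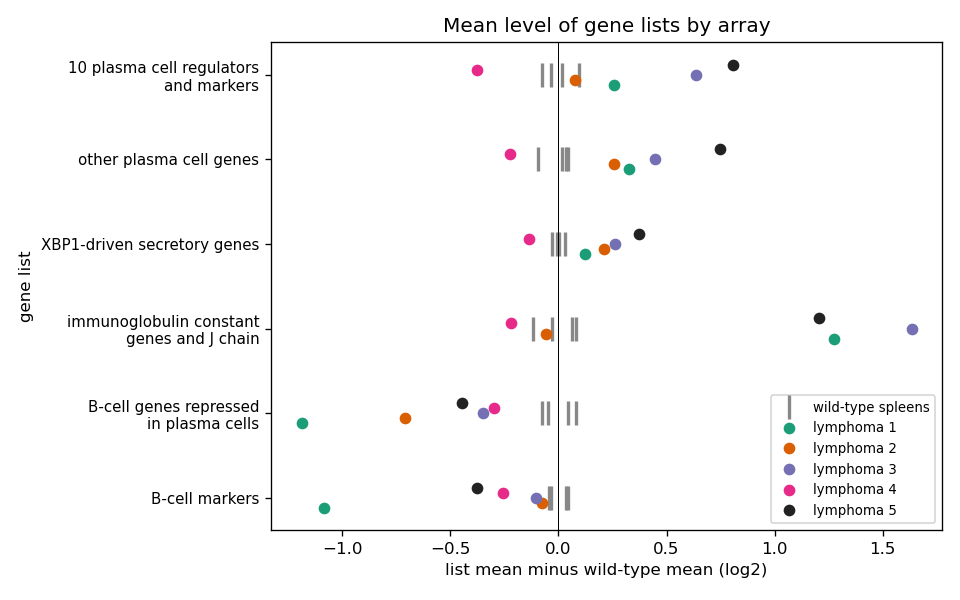
Mean log2 value of 6 gene lists on each array minus the mean of the 4 wild-type spleens, with grey ticks for wild-type spleens and coloured points for lymphomas 1 to 5. Lymphoma 4 lies left of the wild-type spleens in all 6 lists, and all 5 lymphomas lie left of them in both lists of B-cell genes.

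B-cell genes that plasma cells switch off gave mostly negative differences, none of which passed on all 9 arrays. Of 16 measured, limma called 0, 15 had a negative difference with a median of -0.52, and 8 were lower at an unadjusted p under 0.05. Among all named genes 0.605% were called, 50.3% had a positive difference and 8.09% were lower at that p. Bach2, a repressor of Prdm1, read 11.67 to 11.90 in wild-type spleens and 10.51, 10.53, 11.21, 11.21 and 10.99 in lymphomas 1 to 5 (difference -0.89, limma adjusted p 0.0621). Bcl6, the repressor that keeps germinal centre B cells from maturing, differed by -0.65 (limma adjusted p 0.106), and the complement receptor gene Cr2 by -1.25 (0.124). Ccr7, a homing receptor, differed by -0.91 (0.211). Over the whole list every lymphoma lay below every wild-type spleen in 6 of 16 genes, and the groups were apart, in either direction, for 7.33% of all named genes. Bach2, Bcl6, Cr2 and Ccr7 were named because they had the smallest p in the list. Bach2 passed with array weights (limma adjusted p 0.0161) and without lymphoma 3 (0.0479), and Cr2 with array weights (0.0322) and without lymphoma 1 (0.0135). With any 1 wild-type spleen left out neither passed (limma adjusted p 0.136 to 0.223 for Bach2 and 0.245 to 0.347 for Cr2). With the 18S level as a covariate the limma adjusted p was 0.387 for Bach2 and 0.511 for Cr2. Without lymphomas 1 and 2 limma called 4 of the 16, among them Bach2 (-0.64, adjusted p 0.0193) and Cr2 (-0.86, adjusted p 0.00483), while in the same run it called 935 of all probe sets (2.08%) in place of 219.

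Cell content differed between the arrays and its part in these values was not tested. In bulk tissue fewer cells of a type and less RNA per cell cannot be told apart. The mean of 7 B-cell markers, several of which are also in the list of switched-off genes, was 12.16 to 12.25 in wild-type spleens and 11.12, 12.13, 12.10, 11.95 and 11.83 in lymphomas 1 to 5, so the tissue carried B-cell RNA on every array. The mean of 8 natural killer and cytotoxic markers was 7.89 to 7.97 in wild-type spleens and 8.33 to 8.89 in lymphomas. Within this list Klrd1, a natural killer receptor gene, differed by -0.32 (limma adjusted p 0.737), and Gzmk, a granzyme gene, read 6.73 to 7.81 in wild-type spleens and 9.60 to 10.89 in lymphomas. Limma called 1 of these 8 (Gzmk), 7 of 10 macrophage markers, all higher, and 0 in each of the other marker lists. Macrophage markers had a mean of 9.91 to 10.17 in wild-type spleens and 11.11 to 11.71 in lymphomas, and the lymphomas with the highest means were 1 and 4. T-cell markers were at 10.04 to 10.23 in wild-type spleens and at 8.73 and 8.78 in lymphomas 1 and 2 against 9.79 to 10.20 in the others. Plasmacytoid dendritic cell markers were at 8.46 to 8.74 and 7.73 to 8.48. Neutrophil markers were at 6.88 to 7.61 and at 13.29, 9.89, 8.87, 7.21 and 9.89 in lymphomas 1 to 5. Erythroid markers were at 7.16 to 9.19 and at 12.29, 12.02, 9.03, 6.23 and 8.19. Proliferation genes were at 11.42, 11.30, 9.67, 8.49 and 9.78 in lymphomas 1 to 5, with the lowest wild-type spleen at 9.43. In proliferation genes only lymphomas 1 and 2 lay above all wild-type spleens. Lymphomas 3 and 5 lay within the wild-type range, and lymphoma 4 lay below it. Lymphoma 4 was thus the lowest array of all in erythroid and proliferation genes too. Pancreatic acinar cells, which border the spleen and express Xbp1 strongly, had 9 markers with means of 6.13 to 6.39 and 6.39 to 6.68, and 5 epithelial markers, a cell class that carries Sdc1, stood at 5.82 to 5.93 and 5.96 to 6.46. Within them Cela1, an elastase gene, read 6.80 to 7.41 in wild-type spleens and 7.77 to 10.20 in lymphomas, a difference of 1.38 (limma adjusted p 0.211). The keratin gene Krt18 differed by 0.64 (limma adjusted p 0.183). Every lymphoma lay above every wild-type spleen for both. The other measured acinar markers differed by -0.04 to 0.19, and the other epithelial markers by 0.03 to 0.36. The part of these marker genes in the values of Xbp1 and Sdc1 was not tested.

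The genes outside the lists whose values were most like the mean of the 10 over the 9 arrays were Igkv8-30, a kappa chain variable gene (Pearson's r 0.90), the sulfotransferase gene Chst1 (0.89), Prg2 (0.87), the homing receptor gene Gpr15 (0.87) and the enkephalin precursor gene Penk (0.87). They are the 5 highest of 1482 genes with an SD of at least 0.5 over the arrays, and the next was Eif2s3y (0.86), the Y-linked gene given above. Chst1 read 9.17 to 9.43 in wild-type spleens and 10.34, 9.14, 10.12, 9.01 and 11.00 in lymphomas 1 to 5, the order seen for Sdc1. Prg2 read 5.09 to 5.24 and 6.48, 5.23, 6.36, 5.23 and 7.38. Gpr15 was high in lymphomas 3 and 5 (7.35 and 6.70) and at 5.06 to 5.35 in the other lymphomas.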

How the data were processed

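RNA of 9 frozen spleen samples was hybridised to 1-colour Affymetrix arrays, 1 per sample. The authors deposited log2 values from RMA, per the submitters' processing notes; no version or settings of RMA are named in the sources used here. RMA compresses differences near the background, and precision is limited by the number of arrays. Array medians lay between 6.88 and 6.97 and no arrays were identical, so the log2 values were used as deposited. Of 45101 probe sets 64 Affymetrix controls were left out. Gene names follow the platform annotation, in which 34958 probe sets have 1 gene symbol; the RefSeq table of assembly GRCm38.p6 changed 0 of them.

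The groups were compared with limma 3.58.1 (R 4.3.3; moderated, two-sided, no covariate, no filter), with Benjamini-Hochberg adjustment over 45037 probe sets. Where genes are counted, the brightest probe set on average stands for the gene, while p-values stay those of the whole table. The rule for named genes covers all members on all probe sets, up to 4 genes of each other list by smallest p, and the 5 genes most like the mean member profile. Xist, Eif2s3y, Klrd1, Cela1 and Krt18 were named after their values were seen. The members, lists and alternatives were chosen with earlier results of these data known. The alternatives tried were leaving out dim probe sets, other normalization, variance prior, array weights, covariates, a replicate block, other probe sets, and arrays left out. Promoter windows came from RefSeq. Member windows on the chromosome that carries Mzb1 were left out, and 9 of the 10 genes had a window that was searched. Figures used matplotlib 3.10.9 and Python 3.11.15.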

Additional observations from a re-analysis of the deposited data

Results flagged for a closer look

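In 44 groups of 4 or 5 arrays (each of the 21 probe sets and the mean of the 10 genes, in each group), 4 had a sample far from the others by Dixon's test; chance flags about 1 in 20 groups. Ell2 (1450744_at) was lowest in lymphoma 4 at 10.59, against 11.46 to 11.55 in the other lymphomas, and Eaf2 was lowest in the same lymphoma at 6.77, against 8.39 to 8.87. Among wild-type spleens, Xbp1 on 1420886_a_at was lowest in spleen 2 at 10.58, against 10.96 to 11.04, and Txndc5 on 1423746_at was highest in spleen 1 at 10.10, against 9.91 to 9.93.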

How the results depend on the processing

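No probe set of the 10 genes was called on all arrays or in any alternative run, except Ell2 without lymphoma 4 (1 called), and the range over leaving out 1 array is 0 to 1. The count over all probe sets was 219 and ranged from 0 to 530 with 1 array left out; it was 0 without wild-type spleen 2 or 3 and 530 without lymphoma 2. It was 821 with array weights, 5 with the replicate number as a block, 0 with the 18S level and 126 with the erythroid level as a covariate, 130 with 1 probe set per gene (fewer features tested), 935 without lymphomas 1 and 2 and 69 without lymphomas 3 and 5; the cause was not tested. Of the 21 probe sets, 1 was at an unadjusted p under 0.05 with the 18S level and 2 with the erythroid level, against 6 without a covariate. Over all probe sets these counts were 3782, 5860 and 6267. Same-numbered samples had correlations of deviations of 0.099, -0.19, 0.15 and -0.038, so the numbers do not pair them, and under the block lymphoma 5 has no partner. Lists also gained calls, and Igha passed with array weights (difference 0.93, limma adjusted p 0.0414). Other plasma cell genes had 3 without lymphoma 4 and 0 to 3 over leaving out 1 array. The run without lymphoma 4 called 200 of 45037 probe sets, and the run without dim probe sets 254 of 22968. Repressed B-cell genes had 1 with dim probe sets left out, 2 with array weights, 4 without lymphomas 1 and 2, and 0 to 1 with 1 array left out.

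Of the alternative values of the 21 differences 20 changed sign and 397 kept both sign and side of the threshold, and these 20 had differences of at most 0.34 on all arrays. Eaf2 became -0.10 under the replicate block, -0.31 with the erythroid level, -0.09 without lymphomas 1 and 2, -0.34 without lymphomas 3 and 5, and ranged from -0.12 to 0.42 with 1 array left out. The dim Ell2 probe set became -0.0019 after another quantile normalization, -0.02 under the block and -0.016 without lymphomas 3 and 5, and ranged from -0.063 to 0.073. Irf4 on 1421174_at became -0.097 with the 18S level. Without lymphomas 3 and 5 Mzb1 became -0.063, Fkbp11 -0.11 and, among list genes, Ighg3 -0.19. The dim Fkbp11 probe set 1425839_at ranged from -0.12 to 0.0072. The order by the median over the 10 genes in place of the mean was the same. Sdc1 and Fkbp11 lay near the overall median of 6.93, where RMA may understate differences.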
